A study of Gallus gallus with 5 samples.

Results

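Immune receptors, cytokines and defensins were followed in liver RNA of 5 broiler breeder hens, the birds whose offspring are raised as meat chickens. They were taken as the entries of the count table whose symbol names a CD antigen, an interleukin, a Toll-like receptor, a chemokine or its receptor, the tumour necrosis factor family, an interferon regulatory factor, an interferon or its receptor, NF-kB, a STAT factor or a beta-defensin (GAL), together with RSFR, PTPRC, IFIH1 and EIF2AK2. Of 159 such symbols, 97 reached 10 estimated counts in at least 2 of the 5 hens, out of 6286 entries in the table, and all 97 were among the 4309 genes tested. The hens were 2 fed without limit (FF), set against 3 on a restricted allowance (RF), with the feeding groups set up at 38 weeks of age. The labels give no genotype or treatment beyond the feed allowance, and each library carries a number of its own. Their protocol counts 3 hens per group, and the further FF hen was not analysed here. Just inside the count rule lay TLR7 (13 and 10 counts in FF and 9, 6 and 10 in RF) and IL17D (12 and 0 in FF and 11, 10 and 11 in RF). Just outside it lay IL21R (6 and 8 in FF and 2, 9 and 13 in RF), TLR1LA (6 and 9 in FF and 8, 3 and 14 in RF) and GAL6 (6 and 34 in FF and 3, 9 and 8 in RF).

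The liver filters blood from the gut, and its sinusoids hold resident macrophages (Kupffer cells), T cells and other leukocytes beside the hepatocytes. Toll-like receptors and RNA sensors detect microbial molecules and switch on NF-kB and interferon regulatory factors, which raise cytokines and interferons. Cytokine receptors pass their signal on through STAT factors, and defensins and the leukocyte ribonuclease RSFR act directly on microbes. In birds the beta-defensins are called gallinacins, and some are made by heterophils, the avian counterpart of neutrophils, while others are made by epithelia and liver. In bulk tissue such as this, fewer cells of a type and less RNA per cell cannot be told apart.

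Library totals ranged from 2666609 (FF2) to 4622392 (FF1) estimated counts, and 1 count was worth 0.205 to 0.363 CPM (counts-per-million, on library sizes scaled by TMM). The FF2 library stood apart on the first principal component, which held 50.7% of the variance, at 44.5 against -28.0 to -1.75 for the other 4. Among the hepatocyte markers, TTR, APOA1, FGB, TF and HNF4A were measured in every hen, while ALB was listed at 0 in all 5. The defining Kupffer cell markers MARCO and TIMD4 and the T cell marker CD3E were present in every hen. Per-hen values below are in CPM in the order FF1, FF2 and then RF1, RF2, RF3. Fold changes are log2 of FF over RF with a standard error. That error is the size of the log2 fold change divided by the square root of edgeR's F statistic.

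No immune gene passed between FF and RF in edgeR's quasi-likelihood test, with p-values adjusted over all genes by the Benjamini-Hochberg method (0 of 97, against 0.0464% of all genes tested). At an unadjusted p under 0.05 there were 19 members, which is 19.6% of them against 9.35% of all genes. Of these, 10 lay higher in FF (4.41% of all genes did) and 9 lower (4.94%), a split of 11 and 6 when libraries were scaled by their totals alone. The members were chosen with earlier results of these data known. Their shares, here and below, are therefore no independent comparison with all genes. DESeq2 called 1 member, STAT4 (1.83% of all genes), and limma-voom called 0. The count of 19 depended on single hens. It was 34 without FF1 (22.8% of all genes then had such a p), 9 without FF2 (7.09%), 13 without RF1 (5.53%), 11 without RF2 (5.53%) and 13 without RF3 (9.08%). Of the 19, only STAT4, RSFR and IL10RB kept an unadjusted p under 0.05 with each hen left out in turn. The share of all genes that kept such a p in every fit was not computed. A fit without FF1 or FF2 leaves a lone FF hen and takes its spread from the RF hens alone. Of the members, CD40LG reached the count rule only in FF hens and IL18 and TNFRSF11B only in RF hens. Without these 3 the unadjusted p was under 0.05 in 17, with 9 higher and 8 lower in FF. The 17 still include CD8B, which would not meet the count rule without the FF hens. The log2 fold change lay above 0 in 43 of the 97 members (44.3%, against 50.6% of all genes), and its median over the members was -0.05, against 0.01 over all genes.

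To set a difference between the feeding levels apart from a single hen, each member was also placed by its pattern over the hens. FF and RF hens did not overlap in 32 members (33%, against 27% of all genes), with both FF hens above all RF hens in 12 (13.1% of all genes) and below them in 20 (13.9%). Without the 3 members that reached the count rule in hens of 1 group alone, these were 11 and 19. The 11 still include CD8B and TLR7, which would not meet the rule without the FF hens. The 19 include CXCR2, IL17D, IL4I1 and CD300A, which would not meet it without the RF hens. With library totals alone the counts over all members were 17 and 17. All genes moved towards FF under that scaling, and their shares without overlap were not computed for it. A single hen stood apart in 16 members (16.5%, against 8.54% of all genes), meaning that it lay at least 1 from the next hen on the log2 CPM scale and that this gap was at least 50% of the range of the 5 hens. These patterns met in 7 members, CD40LG and IL18 among them. Groups that did not overlap with no hen apart were found in 25 members. That share of 25.8% was close to the 24.8% of all genes. Of the 19 members with an unadjusted p under 0.05, 13 had groups that did not overlap and no hen apart (13.4% of members, against 7.96% of all genes), 4 had groups that did not overlap with a hen apart, and GAL1 and IL15 had overlapping groups with FF2 apart. The remaining 56 members had overlapping groups and no hen apart.

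**Figure D1:**
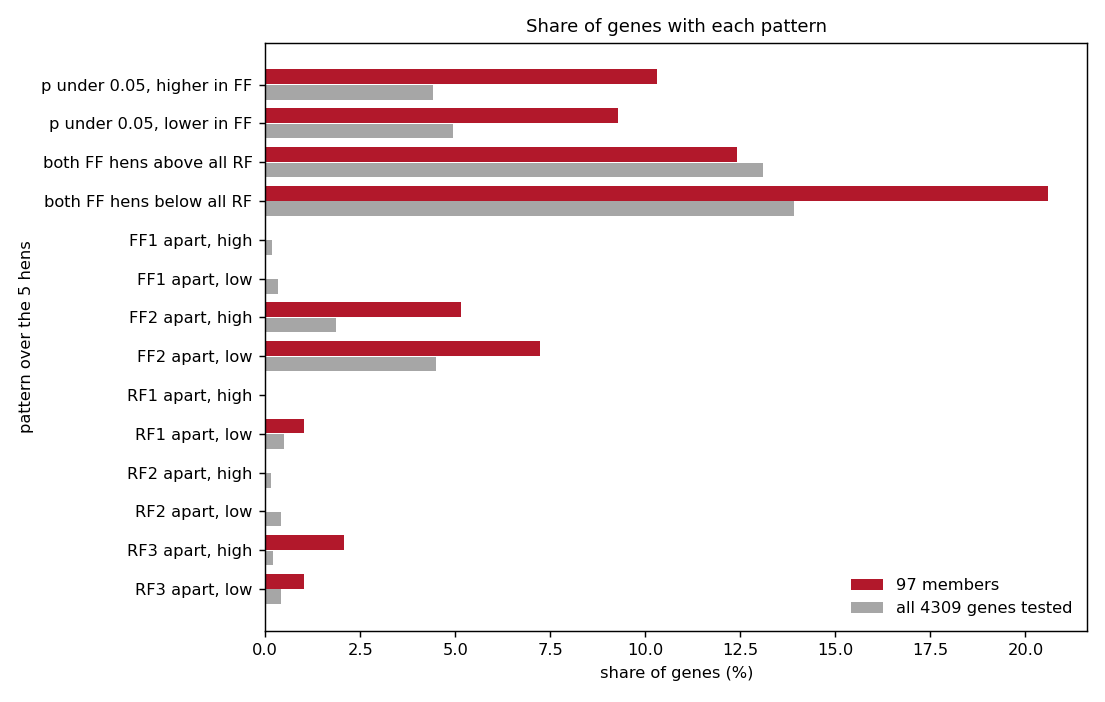
Share of the 97 immune members (red) and of all 4309 genes tested (grey) with each pattern over the 5 hens, in percent on the horizontal axis. Members with both FF hens below all RF hens make up 20.6% against 13.9% of all genes, and FF2 apart and high 5.15% against 1.86%. The first share includes IL18, which reached the count rule only in RF hens. The second includes CD40LG, which reached it only in FF hens.

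STAT4, which carries signals of interleukin 12 and interferon in lymphocytes, had the smallest unadjusted p of the members. It stood at 5.74 and 13.4 CPM in the FF hens, against 38.8, 24.1 and 30.8 CPM in the RF hens. Both FF hens lay below every RF hen, at 9.59 ± 5.45 CPM in FF (SD, n = 2) and 31.2 ± 7.38 CPM in RF (SD, n = 3). The log2 fold change was -1.74 ± 0.44 (edgeR quasi-likelihood, unadjusted p = 0.00478, adjusted p = 0.329). DESeq2 gave it an adjusted p of 0.0259 and limma-voom one of 0.281. It did not pass the adjusted threshold in edgeR. With each hen left out, its log2 fold change ran from -2.43 (without FF2) to -1.22 (without FF1).

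RSFR, a ribonuclease of the RNase A family first found in leukocytes, stood at 54.3 and 56.3 CPM in FF and 90.3, 116 and 123 CPM in RF. The FF hens were nearly alike and below every RF hen, at 55.3 ± 1.41 CPM in FF (SD, n = 2) and 109.5 ± 16.99 CPM in RF (SD, n = 3). Its log2 fold change was -0.99 ± 0.27 (edgeR quasi-likelihood, unadjusted p = 0.00695, adjusted p = 0.348), and it stayed between -1.10 and -0.89 with any hen left out. IL10RB, the receptor subunit shared by interleukin 10 and related cytokines, stood at 11.7 and 13.4 CPM in FF and 22.1, 32.3 and 26.6 CPM in RF. It too had both FF hens below all RF hens, with a log2 fold change of -1.11 ± 0.31 (unadjusted p = 0.00816, adjusted p = 0.378, edgeR) and a range of -1.23 to -0.96 with any hen left out.

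Other members lay lower in both FF hens. CD82, a tetraspanin of the cell surface, stood at 137 and 83.6 CPM in FF and 191, 199 and 255 CPM in RF, and its log2 fold change was -0.96 ± 0.32 (-0.64 without FF2). CD200, a surface ligand that restrains myeloid cells, stood at 19.3 and 11.99 CPM in FF and 28.7, 25.2 and 29.4 CPM in RF. CD1B, which presents lipid antigens, stood at 29.7 and 16.7 CPM in FF and 36.5, 63.7 and 37.8 CPM in RF. In CD82, CD200 and CD1B the FF2 hen was the lowest of the 5 and FF1 lay between it and the RF hens. STAT5B, which carries growth hormone and cytokine signals, stood at 656 and 458 CPM in FF and 959, 904 and 956 CPM in RF, and its log2 fold change was -0.75 ± 0.31. CD200, CD1B and STAT5B are named after their values were seen.

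TNFRSF21, a death receptor of the tumour necrosis factor family, lay higher in both FF hens. It stood at 303 and 226 CPM in FF and 138, 166 and 101 CPM in RF, at 264 ± 54.1 CPM in FF (SD, n = 2) and 135 ± 32.6 CPM in RF (SD, n = 3). Both FF hens lay above all RF hens, and the log2 fold change was 0.97 ± 0.31 (edgeR quasi-likelihood, unadjusted p = 0.0155, adjusted p = 0.457). CD99, a surface glycoprotein involved in leukocyte migration, stood at 18.7 and 8.00 CPM in FF and 4.94, 4.99 and 2.57 CPM in RF. FF1 was its highest hen and FF2 lay closer to the RF hens, so that its log2 fold change of 1.70 ± 0.51 was 0.94 without FF1 and 2.18 without FF2. CD24, a small glycoprotein anchored to the membrane, stood at 26.04 and 33.8 CPM in FF and 13.2, 8.22 and 20.3 CPM in RF (1.09 ± 0.40).

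EIF2AK2, the kinase PKR that senses double-stranded RNA and halts translation, stood at 35.7 and 38.2 CPM in FF and 19.8, 19.96 and 24.99 CPM in RF. Its FF hens were close together and above all RF hens, at 36.9 ± 1.76 CPM in FF (SD, n = 2) and 21.6 ± 2.96 CPM in RF (SD, n = 3), and its log2 fold change of 0.77 ± 0.26 (edgeR quasi-likelihood, unadjusted p = 0.0204, adjusted p = 0.464) stayed between 0.72 and 0.90 with any hen left out. IFIH1, the cytosolic RNA sensor MDA5, stood at 53.1 and 36.3 CPM in FF and 32.7, 29.4 and 24.1 CPM in RF. Its groups did not overlap either, with a log2 fold change of 0.64 ± 0.29 (0.33 without FF1) and an unadjusted p of 0.0599 (edgeR). NFKB1, which encodes the p105 and p50 forms of NF-kB and is named after its values were seen, stood at 60.5 and 80.7 CPM in FF and 44.00, 47.3 and 41.1 CPM in RF (0.68 ± 0.26). CD8B, the beta chain of the cytotoxic T cell coreceptor, had 18 and 19 estimated counts in FF and 10, 6 and 5 in RF, with a log2 fold change of 1.54 ± 0.57 on these low counts. Without the FF hens CD8B would not meet the count rule, so its difference is a description.

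**Figure D2:**
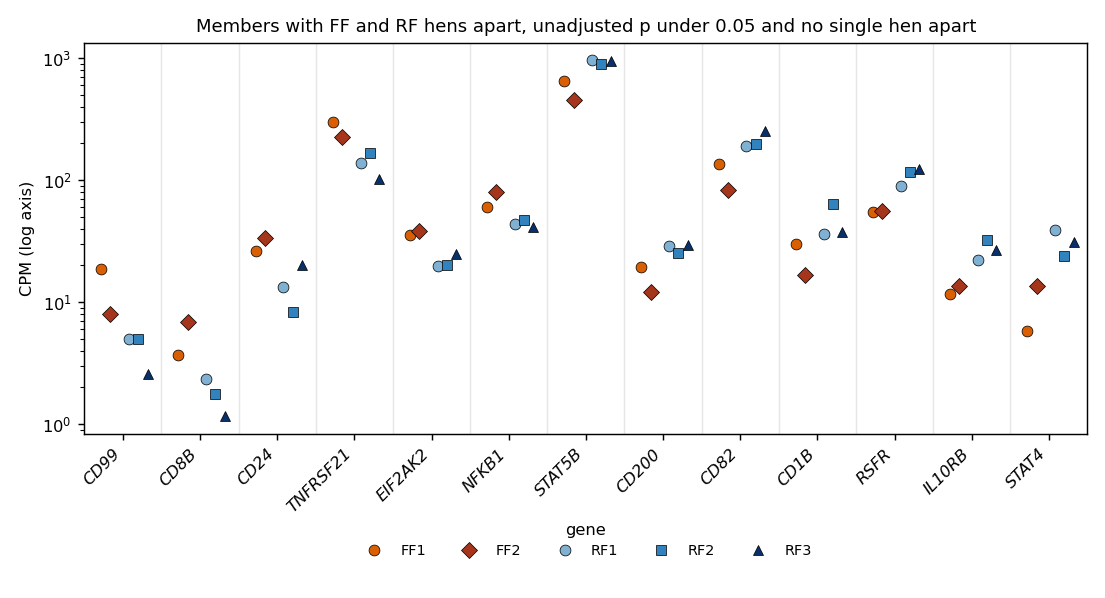
Expression in CPM (log axis) of the 13 members with an unadjusted p under 0.05, groups that do not overlap and no hen apart, ordered by fold change from higher to lower in FF. Points are single hens, FF1 and FF2 left of RF1, RF2 and RF3, and in each gene both FF points lie on the same side of all RF points. CD8B would not meet the count rule without the FF hens.

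FF1 stood apart in 0 members, high or low (0.186% and 0.348% of all genes). FF2 was the hen apart in 12 of the 16 members, high in 5 (1.86% of all genes) and low in 7 (4.48% of all genes). The 5 include CD40LG, which reached the count rule through the FF hens alone. Over all genes FF2 was likewise the most frequent hen apart, high in 80 and low in 193 of 368 such genes. The gap of the hen is given on the log2 CPM scale with a prior count of 2. GAL1, the gallinacin found in heterophil granules, stood at 3.08 and 209 CPM in FF and 1.41, 3.82 and 2.80 CPM in RF. These values came from 15 and 574 estimated counts in FF and 6, 13 and 12 in RF, and the gap of FF2 to the next hen was 5.59. FF1 lay within the range of the RF hens. The log2 fold change of 5.30 ± 1.37 (edgeR quasi-likelihood, unadjusted p = 0.00539, adjusted p = 0.329) was 0.23 without FF2. By limma-voom it was 3.03, with an unadjusted p of 0.197. Without FF1, which leaves FF2 alone against the RF hens, GAL1 had an adjusted p of 0.00244 (edgeR). That fit takes its spread from the 3 RF hens and assumes that the lone FF hen varies like them.

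Further defensins of the same chromosomal cluster were high in FF2. In the RefSeq table of assembly GRCg7b the gallinacin genes stand side by side, and the capital GAL symbols match the avian beta-defensin (AvBD) of the same number among its synonyms. An older numbering gave the same numbers to other genes of the row, and reads of close paralogues may have been shared, so the identity of each entry is uncertain. GAL8 stood at 91.9 and 395 CPM in FF and 144, 157 and 162 CPM in RF, with FF2 the highest hen, a gap of 1.28 and FF1 the lowest hen. Its log2 fold change of 0.65 ± 0.53 was -0.74 without FF2. The next genes in the row, GAL7 and GAL6, were both under the count rule. GAL7 had 7 and 57 estimated counts in FF and 5, 4 and 8 in RF. GAL6 had 6 and 34 estimated counts in FF and 3, 9 and 8 in RF, so that FF2 was the highest hen for both. GAL2, between GAL6 and GAL1, was not high in FF2 (10 and 1 counts in FF and 5, 1 and 3 in RF).

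On the GAL8 side of these genes, GAL9, GAL10 and GAL13 differed in their highest hen. GAL9, a gallinacin known from liver and epithelia, stood at 7308 and 16017 CPM in FF and 7279.5, 9623 and 11674 CPM in RF, with FF2 highest, RF3 next and overlapping groups (0.29 ± 0.42, and -0.37 without FF2). GAL10 stood at 1345 and 2222 CPM in FF and 1165, 910.2 and 3668 CPM in RF, with RF3 as the highest hen and a log2 fold change of -0.10 ± 0.62 (0.78 without RF3 and 0.21 without FF1). GAL13 stood at 22.6 and 8.36 CPM in FF and 10.4, 11.2 and 17.5 CPM in RF, with FF1 highest and FF2 lowest (0.27 ± 0.48, and -0.64 without FF1). GAL11 and GAL12 were listed at 0 in every hen, and GAL4 and GAL5 had at most 1 count in any hen.

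**Figure D3:**
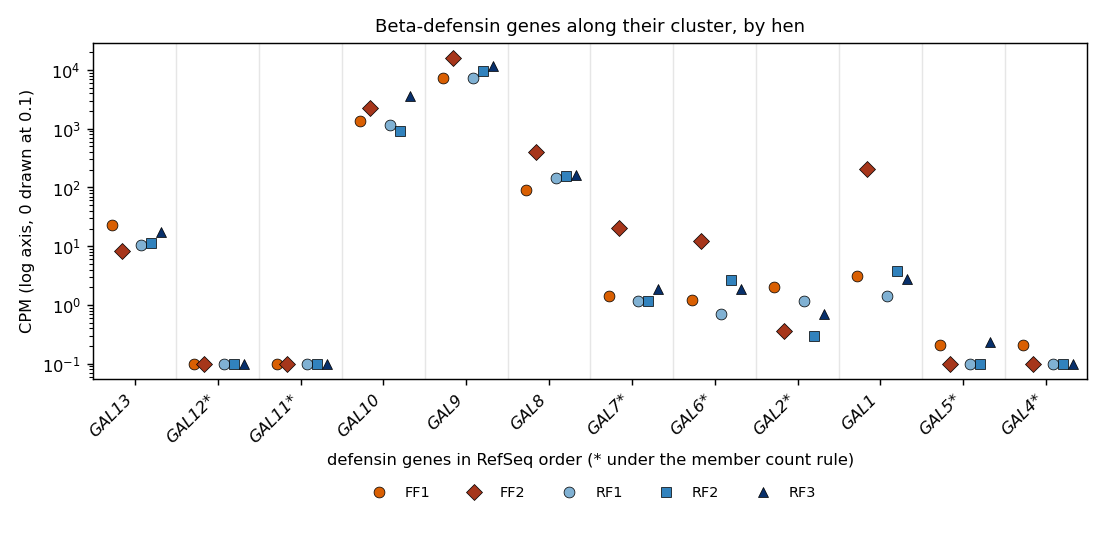
Expression in CPM (log axis, 0 drawn at 0.1) of the gallinacin genes in the order of the RefSeq annotation, by hen, with genes under the count rule marked by an asterisk. FF2 (dark red diamonds) is the highest hen in GAL9, GAL8, GAL7, GAL6 and GAL1 and not in GAL13, GAL10 or GAL2.

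Of the heterophil markers outside the GAL genes none was highest in FF2. Of the 15 markers on the list 9 were in the table, and their summed level was 130 and 351 CPM in FF and 221, 334 and 169 CPM in RF, with GAL1 making up 209 of the 351 CPM in FF2. The granulocyte growth factor receptor CSF3R stood at 36.7 and 13.1 CPM in FF and 52.7, 78.98 and 30.6 CPM in RF. The protease MMP9 stood at 5.95 and 0.363 CPM in FF and 8.94, 9.10 and 5.37 CPM in RF, the value in FF2 being 1 count. The lysozyme LYG2 stood at 21.1 and 51.97 CPM in FF and 64.5, 125 and 4.44 CPM in RF. FF2 was the lowest hen for CSF3R, and for MMP9 on 1 count, while it was the highest for GAL1. The part of heterophil number in these genes was not tested. The cathelicidin CATHL3 had 28 and 0 counts in FF and 3, 1 and 3 in RF, and CATHB1 was listed at 0 in every hen.

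IL15, a cytokine that maintains T and natural killer cells, stood at 22.8 and 82.5 CPM in FF and 12.2, 25.2 and 15.9 CPM in RF. FF2 lay 1.69 above the next hen, which was RF2, and the log2 fold change of 1.56 ± 0.55 was 0.38 without FF2. IFNGR2, the signalling chain of the interferon gamma receptor, stood at 133 and 285 CPM in FF and 125, 85.7 and 106 CPM in RF. Here FF1 also lay above the RF hens, but by a small margin, and the log2 fold change of 0.98 ± 0.37 was 0.35 without FF2. CD40LG, the T cell ligand that activates B cells and macrophages, had 12 and 22 counts in FF and 4, 7 and 6 in RF. It reached the count rule through the FF hens alone, so its difference is a description, and it is named after its values were seen.

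Among the 7 members with FF2 apart and low, CD14, the lipopolysaccharide coreceptor of macrophages, had 36 and 1 estimated counts in FF and 25, 48 and 22 in RF. The FF2 hen, with a single count, lay 2.69 below the next, while FF1 lay within the RF range. IRF7, the interferon regulatory factor that drives type I interferon genes in the chicken, stood at 83.9 and 33.8 CPM in FF and 80.7, 174 and 78.02 CPM in RF. Its hens also spread at the upper end, with RF2 above the other hens. IRF10, a regulator present in birds and lost in mice and humans, stood at 47.8 and 19.3 CPM in FF and 63.1, 53.1 and 42.98 CPM in RF. CD38, an enzyme that consumes NAD at the surface of leukocytes, stood at 12.3 and 5.09 CPM in FF and 14.4, 16.4 and 12.1 CPM in RF. In both IRF10 and CD38, FF1 lay close to the RF hens and FF2 below all 4.

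The other members with FF2 low are named after their values were seen. CD300A, an inhibitory receptor of myeloid cells, stood at 6.97 and 2.91 CPM in FF and 8.71, 11.7 and 10.3 CPM in RF. TLR21, the chicken receptor for CpG DNA, stood at 21.5 and 7.27 CPM in FF and 15.3, 29.4 and 24.1 CPM in RF. IL17D had 12 and 0 counts in FF and 11, 10 and 11 in RF, where a count of 0 in FF2 allows up to 1.09 CPM (3 counts, counting error only). FF1 lay within or just below the RF range in each of these genes.

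Some macrophage markers were low in FF2 as well. The 7 of 12 macrophage and Kupffer cell markers in the table summed to 1899 and 1045 CPM in FF and to 1539.5, 2653 and 2215 CPM in RF, FF2 being the lowest. Within the list MARCO, CTSS, CYBB and CD14 were lowest in FF2, while TIMD4 and SPI1 were highest there. TIMD4 stood at 114 and 218 CPM in FF and 159, 154 and 203 CPM in RF. The part of macrophage number in these genes was not tested. FF2 was the lowest hen in 35.1% of the members (30.8% of all genes) and the highest in 32% (31% of all genes).

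RF3 was the hen apart and high in NFKBIA and IL18, 2 of 97 members against 0.209% of all genes. IL18 entered this count through the RF hens alone, which leaves NFKBIA without it. NFKBIA, the inhibitor that holds NF-kB in the cytoplasm and is itself an NF-kB target, stood at 95.8 and 91.6 CPM in FF and 147, 160.0 and 975 CPM in RF. RF3 lay 2.60 above the next hen, and both FF hens lay below the other RF hens as well. The log2 fold change of -2.19 ± 0.87 was -0.71 without RF3. IL18, a cytokine of macrophages that induces interferon gamma, stood at 1.64 and 1.45 CPM in FF and 3.29, 2.94 and 15.9 CPM in RF, with RF3 2.11 above the next hen. Its log2 fold change of -2.23 ± 0.91 was -0.98 without RF3, on 8 and 4 counts in FF and 14, 10 and 68 in RF. As IL18 reached the count rule through the RF hens alone, its difference is given as a description. Haemoglobin and other erythroid markers, 7 of 12 in the table, summed to 3598 and 3616 CPM in FF and to 2707, 4150.1 and 1084.5 CPM in RF, RF3 being the lowest. The part of blood content in the RF3 values was not tested.

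In the remaining members an RF hen was apart and low, RF1 in 1 member (0.487% of all genes) and RF3 in 1 (0.418%). CD320, the receptor for the vitamin B12 carrier, had 30 and 23 counts in FF and 9, 36 and 33 in RF, RF1 being 1.34 below the next hen on few counts. CXCR7, which binds and removes the chemokine CXCL12 and is named after its values were seen, stood at 18.2 and 13.8 CPM in FF and 12.7, 13.8 and 6.07 CPM in RF.

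**Figure D4:**
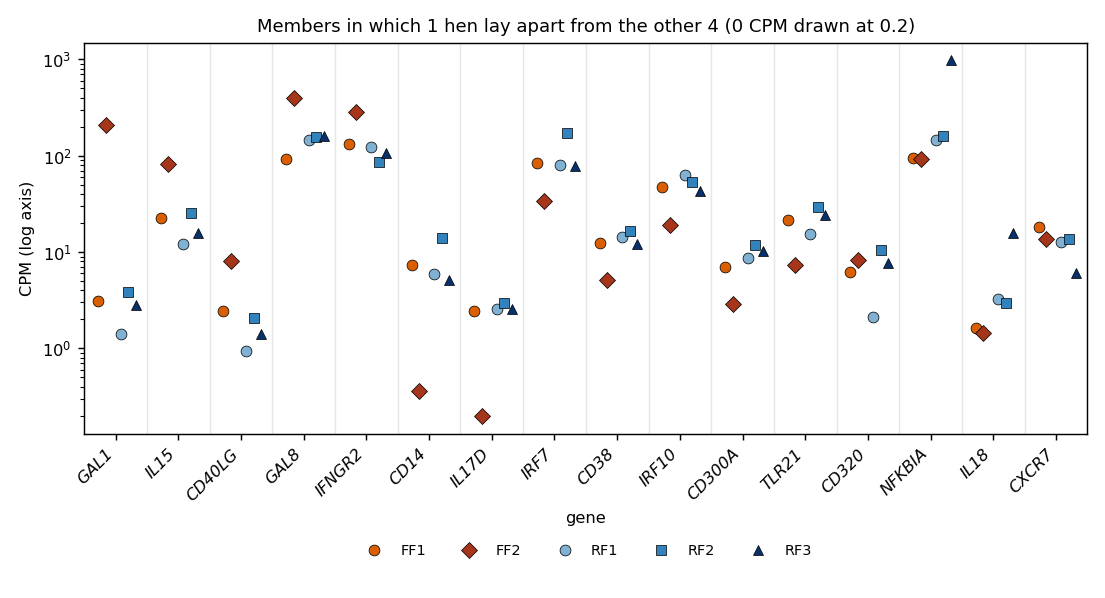
Expression in CPM (log axis, 0 CPM drawn at 0.2) of the 16 members in which a single hen stood apart, grouped by that hen: FF2 high (GAL1 to IFNGR2), FF2 low (CD14 to TLR21), RF1 low (CD320), RF3 high (NFKBIA and IL18) and RF3 low (CXCR7). Points are single hens, FF1 and FF2 left of RF1, RF2 and RF3.

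The groups of members by role were formed with results of these data known, and are described by counts and medians. Of all genes, 50.6% lay above 0. T cell receptor chains, coreceptors and the leukocyte phosphatase PTPRC (CD45) lay above 0 in 9 of 10 members. Their median log2 fold change of 0.67 (0.01 over all genes) was 0.21 without FF2 and 1.14 without FF1. The counts and medians of this set include CD40LG, which reached the count rule through the FF hens alone. Its log2 fold change of 1.78 was the largest of the set, with FF2 highest and RF1 lowest. CD8B, also in the set, would not meet the count rule without the FF hens. PTPRC stood at 51.1 and 97.04 CPM in FF and 39.5, 52.8 and 48.6 CPM in RF (0.65 ± 0.33, 0.13 without FF2 and 1.04 without FF1). FF2 was its highest hen, and FF1 lay within the RF range. CD3E, a signalling chain of the T cell receptor, stood at 49.4 and 89.4 CPM in FF and 48.2, 67.8 and 51.9 CPM in RF, and CD247, the zeta chain, at 18.04 and 37.4 CPM in FF and 7.06, 13.8 and 19.9 CPM in RF. CD8A stood at 9.64 and 18.9 CPM in FF and 6.59, 7.34 and 10.04 CPM in RF, and the costimulatory receptor CD28 at 2.46 and 13.8 CPM in FF and 2.82, 6.46 and 5.37 CPM in RF. RF1 was the lowest hen in 7 of the 10 (14% of all genes). FF2 was the highest hen in 7 (31% of all genes), all but CD3D, CD4 and CD5. CD3D, of the same receptor complex as CD3E, stood at 28.3 and 27.6 CPM in FF and 19.5, 41.4 and 26.2 CPM in RF, with RF2 the highest hen. CD4, the helper T cell coreceptor, stood at 5.33 and 10.2 CPM in FF and 3.29, 10.9 and 5.61 CPM in RF, again with RF2 highest. CD5, a T cell surface receptor, had 37 and 11 estimated counts in FF and 18, 23 and 24 in RF, with FF1 the highest hen and FF2 the lowest in CPM. CD3E, CD247, CD8A, CD28, CD3D, CD4 and CD5 are named after their values were seen. All 7 T cell markers in the table were members, summing to 121 and 201 CPM in FF and to 91.8, 154 and 124.5 CPM in RF.

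Interleukins, interferon receptors and interleukin receptors lay below 0 in 15 of 19 members, with a median of -0.54 and a median between -0.55 and -0.38 under every alternative setting. Both FF hens lay below all RF hens in 9 of the 19, against 13.9% of all genes. IL4I1 is counted in the 15 and the 9, at a log2 fold change of -1.01. It was caught by the interleukin pattern, encodes an amino acid oxidase and is neither an interleukin nor a receptor. It is named after its values were seen. Besides IL10RB and IL18 these included, named after their values were seen, the common gamma chain IL2RG (68.1 and 47.98 CPM in FF and 76.7, 115 and 87.6 CPM in RF), the shared interleukin 6 signal transducer IL6ST (122 and 141 CPM in FF and 172, 191 and 166 CPM in RF) and the interferon receptor chains IFNAR1 (15.6 and 17.4 CPM in FF and 24.5, 19.4 and 28.7 CPM in RF) and IFNGR1 (33.4 and 34.5 CPM in FF and 37.6, 51.7 and 59.1 CPM in RF). Without IL18, which reached the count rule only in RF hens, both FF hens lay below all RF hens in 8 of 18. Of the 19, IL10RB and IL18 lay lower (4.94% of all genes did) and IL15 and IFNGR2 higher (4.41%) at an unadjusted p under 0.05 (edgeR quasi-likelihood). The chains of the interferon gamma receptor lay on opposite sides, IFNGR1 at -0.54 and IFNGR2 at 0.98 on the log2 scale.

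Transcription factors and NF-kB inhibitors lay above 0 in 4 of 14 members with a median of -0.50 (-0.85 without FF1 and -0.38 without FF2). STAT3, the main mediator of interleukin 6 in hepatocytes, stood at 662 and 739 CPM in FF and 894, 944 and 1066 CPM in RF, and IRF8, a factor of macrophages and dendritic cells, at 197 and 156 CPM in FF and 242, 249.8 and 327 CPM in RF. Both had the FF hens below all RF hens and are named after their values were seen. IRF1, an activator of interferon-inducible genes, stood at 126 and 169 CPM in FF and 124, 186 and 88.3 CPM in RF. IRF2, known to oppose it at shared sites, stood at 82.8 and 134 CPM in FF and 112, 99.8 and 114 CPM in RF, and the groups overlapped in both.

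Surface proteins with CD numbers outside the T cell set lay above 0 in 7 of 20 members, with a median of -0.37 (-0.98 without FF1 and -0.15 without FF2). FF2 was the lowest hen in 13 of them (30.8% of all genes). CD74, the invariant chain of class II antigen presentation, stood at 2036 and 1261 CPM in FF and 1862, 3090.4 and 1931 CPM in RF, and CD81, a tetraspanin, at 3085 and 1961 CPM in FF and 2149.8, 2574 and 2418 CPM in RF. CD36, a fatty acid and scavenger receptor, stood at 133 and 185 CPM in FF and 189, 106 and 195 CPM in RF, with both groups spread over the same range. The members with a TNF symbol had 6 of 11 above 0 and a median of 2.26e-04, with log2 fold changes of -0.85 to 0.97. They include TNFAIP1, TNFAIP8 and TNFAIP8L1, which are neither ligands nor receptors of the tumour necrosis factor family. The median is the value of TNFAIP8L1. The ligand TNFSF10 (TRAIL) stood at 681 and 398 CPM in FF and 472, 542 and 452 CPM in RF. The receptor TNFRSF1A stood at 55.2 and 23.3 CPM in FF and 46.8, 113 and 54.4 CPM in RF.

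Toll-like receptors and RNA sensors had 4 of 8 members above 0, with a median of 0.14 that ran from -0.23 (without FF2) to 0.40 (without RF3) with each hen left out, and was -0.08 without RF1. TLR4, the lipopolysaccharide receptor, stood at 10.5 and 13.4 CPM in FF and 12.7, 14.97 and 18.5 CPM in RF, and TLR5, the flagellin receptor, at 6.77 and 6.18 CPM in FF and 5.41, 13.5 and 16.6 CPM in RF. Chemokines and their receptors were low throughout, with 5 of 8 above 0 and a median of 0.13 (from -0.41 without FF2 to 0.40 without RF2), and their smallest unadjusted p was 0.214 (edgeR). CCL5 had 15 and 13 counts in FF and 11, 16 and 14 in RF, and CXCL12 38 and 28 in FF and 83, 24 and 46 in RF. The defensins with RSFR had 4 of 6 above 0 and a median of 0.28 (from -0.44 without FF2 to 0.62 without RF3). CCRN4L, caught by the chemokine receptor pattern, encodes the deadenylase-related protein nocturnin and is no chemokine receptor, and it stood at 20.7 and 17.4 CPM in FF and 24.9, 19.1 and 25.7 CPM in RF. IRF1, IRF2, CD74, CD81, CD36, TNFSF10, TNFRSF1A, TNFAIP1, TNFAIP8, TNFAIP8L1, TLR4, TLR5, CCL5, CXCL12 and CCRN4L are named after their values were seen.

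**Figure D5:**
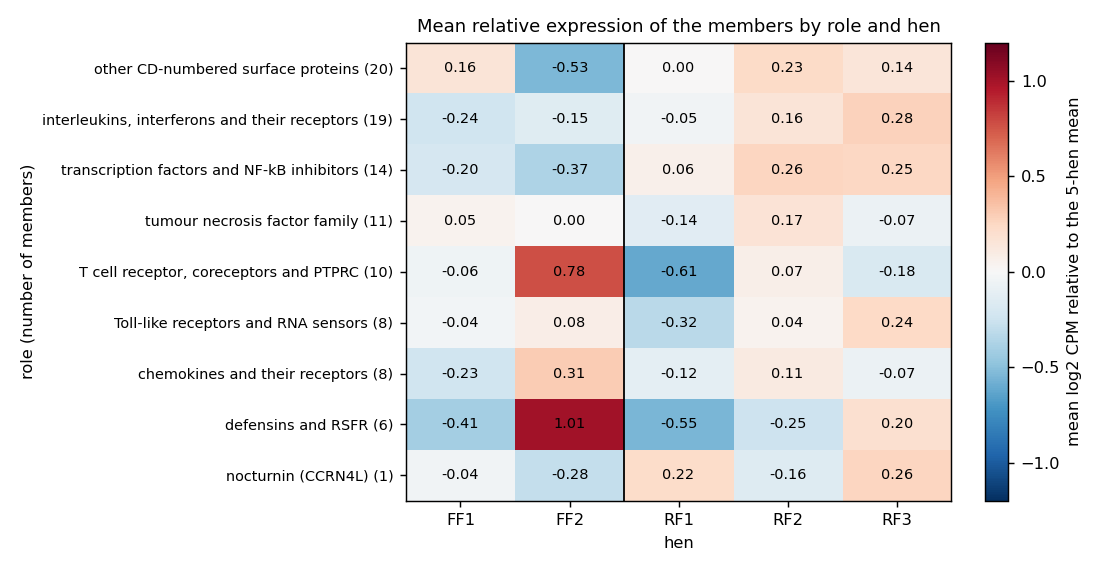
Mean log2 CPM of the members of each role in each hen, relative to the mean of the 5 hens, with the number of members in parentheses and FF hens left of the line. FF2 is highest for the T cell set (0.78) and for the defensins with RSFR (1.01) and lowest for the other CD-numbered proteins (-0.53). The defensin mean leans on GAL1, at 209 CPM in FF2 against 1.41 to 3.82 CPM in the other hens. FF2 was the highest hen in 3 of those 6 members (31% of all genes) and the lowest in 1 (30.8%).

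In 7 lists of immune pathway genes that are not members, 0 of 79 tested entries passed by the edgeR quasi-likelihood test adjusted over all genes, and at an unadjusted p under 0.05 2 lay higher (2.53%, against 4.41% of all genes) and 3 lower (3.8%, against 4.94%). DESeq2 called LEAP2 and CISH among them (adjusted p = 0.00198 and 0.00940; 2.53%, against 1.83% of all genes) and limma-voom called 0. Among other antimicrobial proteins (3 tested, 2 above 0, median 0.31), LEAP2, a liver-made peptide that also blocks the ghrelin receptor in mice, stood at 91.7 and 211 CPM in FF and 40.00, 21.1 and 43.2 CPM in RF. Both FF hens lay above all RF hens, with a log2 fold change of 2.11 ± 0.44 (unadjusted p = 0.00162, adjusted p = 0.24, edgeR), and 1.40 without FF2. LYG2 lay at -0.83 ± 1.04, and at 0.073 without RF2. Among JAK kinases and their inhibitors (15 tested, 8 above 0, median 0.10) was CISH, a cytokine signalling inhibitor induced by STAT5. CISH stood at 165 and 50.9 CPM in FF and 324, 624 and 434 CPM in RF (-2.09 ± 0.56, -3.18 without FF1 and -1.47 without FF2). The kinase JAK1 stood at 355 and 799 CPM in FF and 376, 207 and 225 CPM in RF, with FF2 apart and high (1.10 ± 0.43, 0.41 without FF2).

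Among genes of antigen presentation 1 of 9 lay above 0 (50.6% of all genes did), with a median of -0.66. This rested on single hens: without FF2 it was 4 of 9 with a median of -0.06, without RF2 4 of 9 with -0.08, and without FF1 0 of 9 with -2.10. BF1, a class I heavy chain of the chicken histocompatibility complex, stood at 5.33 and 0.727 CPM in FF and 0, 1778 and 97.9 CPM in RF. The RF hens alone ran from 0 to 1778 CPM, and BF1 has close paralogues among the class I genes, so its value is uncertain. CTSS, a lysosomal protease of antigen presenting cells, stood at 931 and 273 CPM in FF and 718, 1277 and 938 CPM in RF. Interferon-stimulated genes (6 tested, 4 above 0, median 0.15) had ZC3HAV1 at 0.52 ± 0.26 and MX1 at -1.03 ± 0.59, MX1 on 9 and 3 counts in FF and 13, 8 and 17 in RF. Adaptors and kinases upstream of NF-kB (19 tested, 10 above 0, median 0.08) had IRAK4 at 0.68 ± 0.32 (0.40 without FF2) and TAB1 at -0.52 ± 0.29 (-0.31 without FF2). Leukocyte signalling genes (14 tested, 7 above 0, median -0.01) had LYN at 0.51 ± 0.28 (0.25 without FF2) and LCP2 at 0.78 ± 0.45 (-0.21 without FF2 and 1.37 without FF1). Acute phase proteins and complement (13 tested, 3 above 0, median -0.20) had the pantetheinase VNN1 at -0.93 ± 0.38 (-0.60 without RF1) and the lectin pathway protease MASP1 at -0.52 ± 0.30 (-0.33 without FF2). With each hen left out in turn the median ran from -0.19 to 0.14 for JAK kinases and their inhibitors, -0.15 to 0.26 for the NF-kB adaptors, -0.04 to 0.43 for interferon-stimulated genes, -0.14 to 0.07 for leukocyte signalling, -0.09 to 0.82 for the antimicrobial proteins and -0.33 to -0.13 for acute phase proteins and complement.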

How the data were processed

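Liver RNA of 5 hens was sequenced from libraries that keep strand, per the labels' protocols. The deposited table holds estimated counts per gene symbol with no normalization apparent. Per the submitters' processing notes, the build was galGal4 and the tools included edgeR, Cuffdiff 2.2.1, TopHat2 2.0.13 and FastQC, without their roles. Which annotation was used, whether counting used strand and how multiply mapped reads were treated is not given in the sources used here, so values of close paralogues and of overlapping genes are uncertain.

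Of 6286 entries 51 held a value that was not whole, no member among them, and counts were rounded. Genes were kept by filterByExpr with a minimum count of 10, scaled by TMM (trimmed mean of M values) and tested in edgeR 4.0.16 (quasi-likelihood, two-sided, 2 FF against 3 RF hens) in R 4.3.3, with Benjamini-Hochberg adjustment over 4309 genes and a threshold of 0.05. The biological coefficient of variation was 32.4%. Alternatives used RLE size factors, library totals alone, other filters, DESeq2 1.42.0, limma-voom (limma 3.58.1), a replicate block and each hen left out. The steps were tested on simulated data.

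The members and lists were chosen with earlier results of these data known. The genes named by rule were up to 10 members with the smallest p among those whose groups did not overlap, up to 10 whose single hen had the widest gap and a mean of at least 5 CPM, the GAL genes, RSFR, PTPRC, IFIH1 and EIF2AK2, and up to 2 genes per pathway list. All 97 symbols matched a symbol or synonym in the RefSeq table of GRCg7b. Intervals and limits on counts of 0 cover counting error only.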

Additional observations from a re-analysis of the deposited data

How the results depend on the processing

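With only 2 and 3 hens, single hens moved most counts. With each hen left out in turn, members with an adjusted p under 0.05 (edgeR quasi-likelihood) numbered 0 to 1 and those with an unadjusted p under 0.05 numbered 9 to 34, of which 4 to 15 lay higher and 5 to 19 lower in FF. Members whose groups did not overlap then numbered 40 to 76, with FF above in 13 to 35 and below in 23 to 41. Such counts must grow for any set of genes when fewer hens are compared. The shares of all genes were not computed for them or for the splits by direction, so they say nothing particular about the members. DESeq2 called 1 member. With a gap of 2 in place of 1 on the log2 scale, a single hen stood apart in 5 members, with FF2 high in 1 and low in 2. The stricter limit requires fewer, and the share of all genes was not computed for it. Library totals alone moved the median of all genes by about 0.1, to 0.11. Leaving hens out for the medians of roles and pathway lists, and the counts without the 3 members that reached the count rule in 1 group alone, were chosen after seeing the data. Other scalings, filters and prior counts left these counts within 1.5 times.

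The labels number replicates in both groups, but nothing ties hens of the same number, and the deviations of FF1 and RF1 and of FF2 and RF2 from their group means correlated at -0.143 and -0.355 across genes. With the replicate block, RF3 has no partner and adds nothing to the contrast. The unadjusted p was then under 0.05 in 7 members (4 with FF higher, 3 with FF lower) and the adjusted p in 0 (edgeR quasi-likelihood). In that fit the unadjusted p was 0.0152 for STAT4, 0.0827 for RSFR and 0.0543 for IL10RB (edgeR quasi-likelihood). The block leaves fewer degrees of freedom for every gene, and the share of all genes in that fit was not computed. The lower count is therefore no result about the members.

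The log2 fold change of GAL10 turned to 0.01 with library totals alone (0.0078), to 0.15 by limma-voom and to 0.75 with the replicate block. With each hen left out it ran from -0.50 to 0.78, CD320 from -0.34 to 0.55, GAL8 from -0.74 to 1.35, GAL9 from -0.37 to 0.74, GAL13 from -0.64 to 0.80, LCP2 from -0.21 to 1.37 and LYG2 from -1.59 to 0.073. The cause of these turns was not tested. At FF2's depth 1 count was 0.363 CPM, so values of a few CPM rest on few counts.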

Other observations

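Of the 159 symbols, 62 fell under the count rule, 17 of them listed at 0 in every hen, the cytokines IL1B, IL2, IL4 and IL6 included. The hepatocyte marker ALB, C3 and RELA were also listed at 0 in every hen, so a listing at 0 need not mean that a gene was silent. CCR8, a chemokine receptor of T cell subsets, had 2 and 3 estimated counts in FF and 3, 2 and 25 in RF, the high one being RF3, the hen that was also high for NFKBIA and IL18. IL8L1, a chicken counterpart of interleukin 8, had 8 and 11 counts in FF and 1, 2 and 4 in RF, and IL12B, a subunit of interleukin 12, 3 and 14 in FF and 9, 4 and 9 in RF. IL10, the ligand of the receptor that includes IL10RB, had 0 and 0 counts in FF and 0, 0 and 1 in RF. Interferon gamma (IFNG) had 1 and 2 in FF and 0, 0 and 1 in RF, at a depth that cannot show a difference. These genes were chosen after their values were seen.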
